A study of Mus musculus with 26 samples.

Results

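The genes described are 10 histone lysine demethylases other than KDM3A and KDM3B: Jmjd1c, which encodes the third KDM3 enzyme, Kdm4a, Kdm4b, Kdm4c and Kdm4d, Kdm7a, Phf2 and Phf8, and Kdm1a and Kdm1b. They were taken by symbol and not by their measured values, and all 10 are among the 24412 gene symbols that each of the 3 expression tables lists. The study profiled polyA RNA of C57BL/6J mouse oocytes and early embryos in 26 libraries, 13 groups of 2, and the question put to these genes was which of them remain when the maternal supply of Kdm3a and Kdm3b is missing. Mutant oocytes came from Zp3-Cre; Kdm3a f/f; Kdm3b f/f females, in which the Cre recombinase is made in growing oocytes, and received wild-type sperm by in vitro fertilisation. The embryos are called mDKO here, for maternal double knockout, and a gene copy brought in by the sperm is intact. Without injection, control and mDKO were compared as MII oocytes (mature eggs before fertilisation) and as embryos at the early (E2C) or late (L2C) 2-cell stage. With injection, there were 4 E2C groups, namely control with mCherry and mDKO with mCherry, Kdm3aWT or Kdm3aHA, and 3 wild-type 4-cell (4C) groups with the same 3 constructs. The sources used here give neither the genotype of the controls beyond that word, nor the age of the females, nor the meaning of HA, and the L2C titles say DKO where the genotype label says maternal. Each library was a pool of 12 to 20 embryos (20 at L2C), and nothing says that both pools of 1 group were from different matings, so the p-values may measure only technical spread.

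Histone demethylases remove methyl groups from lysines of the histone tails. KDM1A (LSD1) and KDM1B (LSD2) use FAD and act on mono- and dimethylated H3K4, and KDM1A can also act on H3K9 with some partners. The others are JmjC enzymes, which need iron and 2-oxoglutarate: the KDM4 enzymes act on tri- and dimethylated H3K9, and most of them on H3K36 too. KDM7A, PHF2 and PHF8 act on mono- or dimethylated H3K9 among other marks, and the KDM3 enzymes act on mono- and dimethylated H3K9. In growing oocytes KDM1B is known for clearing H3K4 methylation before maternal imprints are set. Messages stored in the oocyte are degraded from meiotic maturation to the 2-cell stage while the embryo starts its own transcription, so a level at E2C can mix stored and new RNA.

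The bases before the transcription start of the members that differed between mDKO and control without injection, and of Kdm1a, the partner of Kdm1b in the same family, are shown so that their starts can be compared. They are RefSeq sequences on GRCm38.p6, read 5′ to 3′ on the gene's strand, up to 250 bases before the start and without bases that GENCODE M21 places in an exon. Each start is a single RefSeq start and need not be the outermost end of the gene. The Kdm1b stretch runs past the outer gene end at chr13:47043373, and that of Kdm1a past chr4:136602787. Part of both stretches thus lies inside the gene's extent. Capitals mark GC boxes (GGGCGG or its reverse complement CCGCCC) and CCAAT boxes (CCAAT or ATTGG).
Kdm1b, chr13:47043344-47043498, plus strand: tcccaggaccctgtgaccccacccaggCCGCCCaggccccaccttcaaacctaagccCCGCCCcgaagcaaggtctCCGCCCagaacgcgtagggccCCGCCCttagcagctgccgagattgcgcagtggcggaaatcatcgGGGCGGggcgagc
Kdm1a, chr4:136602724-136602973, minus strand: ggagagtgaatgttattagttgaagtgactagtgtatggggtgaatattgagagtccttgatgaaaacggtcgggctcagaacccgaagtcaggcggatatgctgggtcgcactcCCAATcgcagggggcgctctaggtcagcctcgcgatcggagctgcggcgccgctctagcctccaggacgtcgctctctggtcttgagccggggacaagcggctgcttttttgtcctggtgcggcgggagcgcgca
Kdm7a, chr6:39206790-39207023, minus strand: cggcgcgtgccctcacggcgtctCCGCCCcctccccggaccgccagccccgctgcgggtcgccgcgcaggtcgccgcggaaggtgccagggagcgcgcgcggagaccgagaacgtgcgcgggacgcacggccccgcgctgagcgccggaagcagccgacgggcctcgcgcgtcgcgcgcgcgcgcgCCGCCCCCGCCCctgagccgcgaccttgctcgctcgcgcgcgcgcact
Kdm4c, upstream start, chr4:74242247-74242496, plus strand: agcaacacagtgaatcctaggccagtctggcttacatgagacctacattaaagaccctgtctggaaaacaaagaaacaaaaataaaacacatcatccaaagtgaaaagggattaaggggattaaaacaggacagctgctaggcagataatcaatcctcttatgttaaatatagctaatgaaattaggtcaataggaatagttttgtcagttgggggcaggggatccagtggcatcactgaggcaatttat
Kdm4c, downstream start, chr4:74251715-74251878, plus strand: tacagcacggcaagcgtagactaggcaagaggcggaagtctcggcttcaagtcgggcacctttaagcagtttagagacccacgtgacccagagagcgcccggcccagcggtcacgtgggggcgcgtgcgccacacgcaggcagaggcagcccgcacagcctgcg

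Over the full 250 bases before these starts, Kdm1b had 6 GC boxes and Kdm7a 3, whereas Kdm1a had 0 GC boxes and 1 CCAAT box. The upstream Kdm4c start had neither box, 0 CpG dinucleotides and a GC content of 39.6%, and the downstream one had neither box but 19 CpG dinucleotides. By a search of their ends, the bases after this downstream start were in no GENCODE M21 transcript of Kdm4c, unlike those after the other starts shown. Across all 32851 RefSeq starts of the table, 32.7% held a GC box and 33.8% a CCAAT box, the median GC content was 52.4% and the median number of CpG dinucleotides was 6. A TATA box (TATAAA or TTTATA) was found at 12.4% of all starts and at 0 of the 11 starts of the 9 members with an entry; Kdm4b had none. A match of letters is a description of the sequence and not of a bound site. Kdm1b and the methyltransferase gene Tpmt start 34 bases apart by their outermost RefSeq models, on opposite strands, and the 3′ end of Kdm1b overlaps that of Dek by 513 bases. Because the strand setting of the counting is not given, reads there cannot be assigned with certainty, and the values of both neighbours are given beside those of Kdm1b.

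Across the 26 libraries, 7649 to 12396 genes reached 1 TPM (TPM, a length-corrected share of a library's total that is scaled to the same sum in each library). Across genes, log2(TPM + 1) of the 2 replicates correlated at 0.968 to 0.995 in each group. TPM keeps no read depth, so the depth is unknown. The lowest number of genes belonged to the 4C mCherry replicate 2, which stood apart from its partner. MII libraries were made with another library kit than E2C and 4C libraries, and the L2C kit is not given, so that stage and kit cannot be told apart. All 10 oocyte markers were listed above 0 in every MII, E2C and L2C library. This does not tell the stages apart, since it also held in 4C mCherry replicate 1. In pools, fewer cells that hold a message and less message per cell cannot be told apart. Kdm3a, one of the targeted genes, stood at 8.08 and 8.83 TPM in control MII oocytes and at 0.725 and 0.718 TPM in mDKO oocytes, and Kdm3b at 26.6 and 25.0 against 1.75 and 1.87 TPM, so both labels hold at MII. At E2C both were lower in each mDKO library than in each control library, Kdm3a at 0.642 and 0.557 against 2.59 and 2.07 TPM. By L2C Kdm3a was at 28.4 and 26.3 TPM in mDKO and at 34.1 and 43.8 TPM in control embryos, whose ranges do not overlap but whose difference did not pass the test (adjusted p = 0.0573 by limma). Kdm3b, at 0.651 and 1.79 TPM in mDKO L2C embryos against 3.06 and 3.70 TPM, was called lower there (-1.03 ± 0.32, adjusted p = 0.0383, limma), in 4 of 9 alternatives. That call was lost without L2C mDKO replicate 1 (-0.65, adjusted p = 0.222), control replicate 1 (0.0792) or control replicate 2 (0.129), with a pseudocount of 0.1 (0.0557) and without the filter on low TPM (0.105).

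In mDKO oocytes the other demethylases remained as a pool slightly smaller than that of controls, without overlap. Single genes went both ways: 5 of the 10 lay below both controls, 3 lay above both and 2 overlapped with them. The share of all genes without overlap was not counted, so these counts do not set the members apart. Of the 8 members tested, 1 was called higher and 1 lower. Their summed level was 513 and 502 TPM in mDKO MII oocytes and 547 and 554 TPM in controls, and 8 of the 10 genes stood at or above 1 TPM in both libraries of either genotype. The LSD genes made up most of it: Kdm1a and Kdm1b together took 65.0% and 64.4% of the sum in mDKO oocytes and 58.2% and 56.6% in controls. Jmjd1c, the KDM3 gene that was not targeted, took only 0.488% and 0.424% of the sum in mDKO oocytes and 0.502% and 0.538% in controls. Kdm3a and Kdm3b themselves accounted for 5.97% and 5.75% of the 12 genes together in control oocytes and for 0.481% and 0.513% in mDKO oocytes.

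In control oocytes the order of mean levels was Kdm1a (198 TPM), Kdm1b (118), Kdm7a (102), Kdm4a (67.3), Phf2 (48.0), Phf8 (12.0), Jmjd1c (2.86), Kdm4b (1.52), Kdm4c (0.591) and Kdm4d (0.461). Only Kdm4c and Kdm4d, the last 2, had overlapping ranges among neighbours in that order. In mDKO oocytes Kdm1b (167 TPM) and Kdm1a (161 TPM) overlapped at the top, followed by Phf2 (64.6), Kdm7a (53.7) and Kdm4a (43.1). At E2C the pool was smaller in TPM: the control libraries summed to 159.6 and 137 and the mDKO libraries, which did not overlap with them, to 234 and 189. At L2C the control sums were 109 and 117 TPM and the mDKO sums 115 and 122 TPM, which overlap, and 8 of 10 genes in control and 9 of 10 in mDKO embryos were at or above 1 TPM in both libraries. At that stage Kdm3a and Kdm3b were 25.4% and 28.9% of the 12 genes in control embryos, and 20.2% and 18.7% of them in mDKO.

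**Figure D1:**
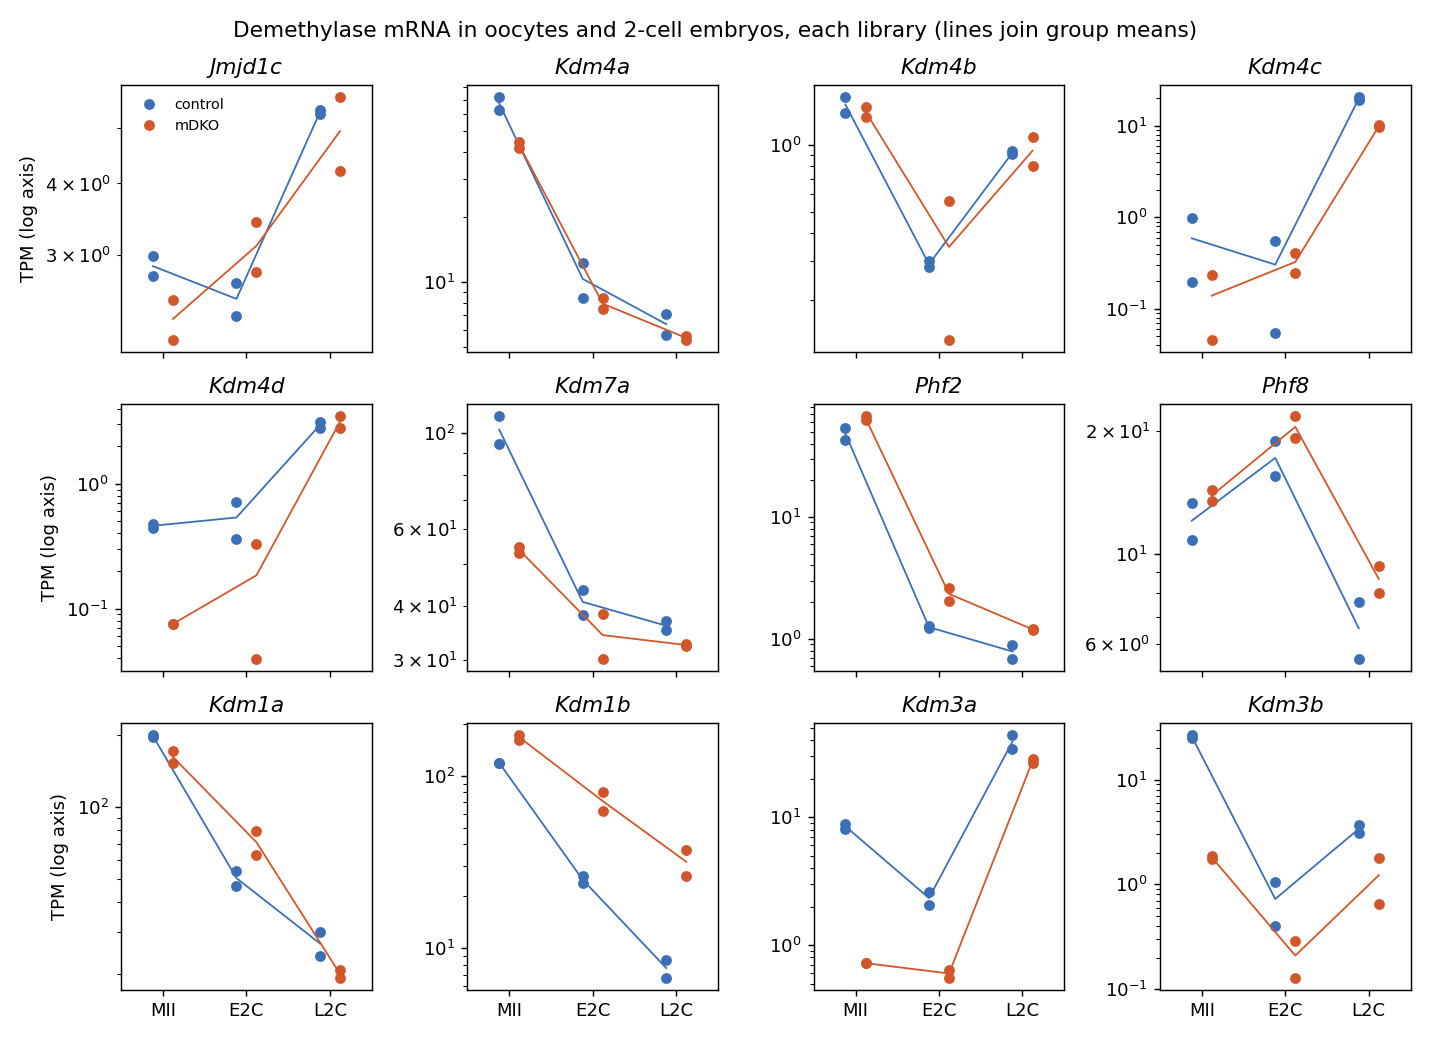
TPM (log axis) of the 10 demethylase genes and of Kdm3a and Kdm3b in each library of control and mDKO MII oocytes, early 2-cell (E2C) and late 2-cell (L2C) embryos; points are libraries and lines join the means of 2. Kdm1b in mDKO lies above control at each stage, while Kdm3a and Kdm3b lie below it.

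Among the 10 genes, Kdm1b (chr13:47043373-47085279, GRCm38.p6, plus strand, 21 exons in its longest coding transcript) was called higher in mDKO at each of the 3 stages. Control MII oocytes held 119 and 118 TPM of it, and mDKO oocytes 162 and 172 TPM. In control E2C embryos it was at 26 and 23.8 TPM, whereas mDKO embryos were at 80.4 and 62.0 TPM. The L2C controls had 8.57 and 6.74 TPM, against 26.1 and 37.2 TPM in their mDKO counterparts. The groups did not overlap at any stage, and the ratio of mDKO to control means was 1.41 at MII, 2.86 at E2C and 4.14 at L2C. Relative to the MII mean, the mean TPM was 21.0% at E2C and 6.46% at L2C in controls, and 42.6% and 19.0% in mDKO. Stage and library kit cannot be told apart, so these shares do not measure how much stored message was left.

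In log2(TPM + 1), a scale on which changes of low genes come out too small, Kdm1b rose by 0.49 ± 0.08 (standard error, n = 2 libraries per group throughout) at MII, adjusted p = 0.0420. The rise was 1.47 ± 0.19 at E2C, adjusted p = 0.00206, and 1.9 ± 0.23 at L2C, adjusted p = 9.00e-04, all by limma with Benjamini-Hochberg adjustment over all genes tested. With 2 libraries against 2, an exact permutation test cannot go below p = 0.333. The MII call was lost without any single one of its 4 libraries (adjusted p = 0.0887 to 0.182, limma), without the filter on low TPM (0.0804) and with all 12 uninjected libraries in 1 fit (0.195), and the E2C and L2C calls were kept in each of 9 alternatives. A change of the effect between stages was not called, at 0.98 ± 0.27 from MII to E2C (adjusted p = 0.0774, limma) and 0.44 ± 0.27 from E2C to L2C (adjusted p = 0.270, limma); without E2C mDKO replicate 2 the former was 1.16 with an adjusted p of 0.0412. Of the neighbouring genes, Tpmt and Dek were not called at any of these stages, and in E2C embryos Dek was at 366 and 336 TPM in the controls, against 344 and 326 TPM in mDKO.

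The background of these calls differed by stage. At MII, 0.845% of 10765 genes tested were called higher and 3.41% lower in mDKO (91 and 367 genes, or 110 and 256 with libraries rescaled by size factors). At E2C 5.38% of 11140 genes were called higher and 8.99% lower, and at L2C 19.1% of 12606 genes were called higher and 23.3% lower. Among the members 1 of 8 tested was called higher and 1 lower at MII, 1 of 7 higher and 0 lower at E2C, and 1 of 9 higher and 1 lower at L2C, with a median log2 fold change of -0.14, 0.24 and -0.10 against -0.05, -0.01 and 0.00 for all genes tested. At L2C the members' share was thus no larger than that of all genes. Kdm4c and Kdm4d were under the filter at MII and, with Kdm4b, at E2C, and Kdm4b was under it at L2C, since a gene needed 1 TPM in at least 2 libraries of a fit.

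**Figure D2:**
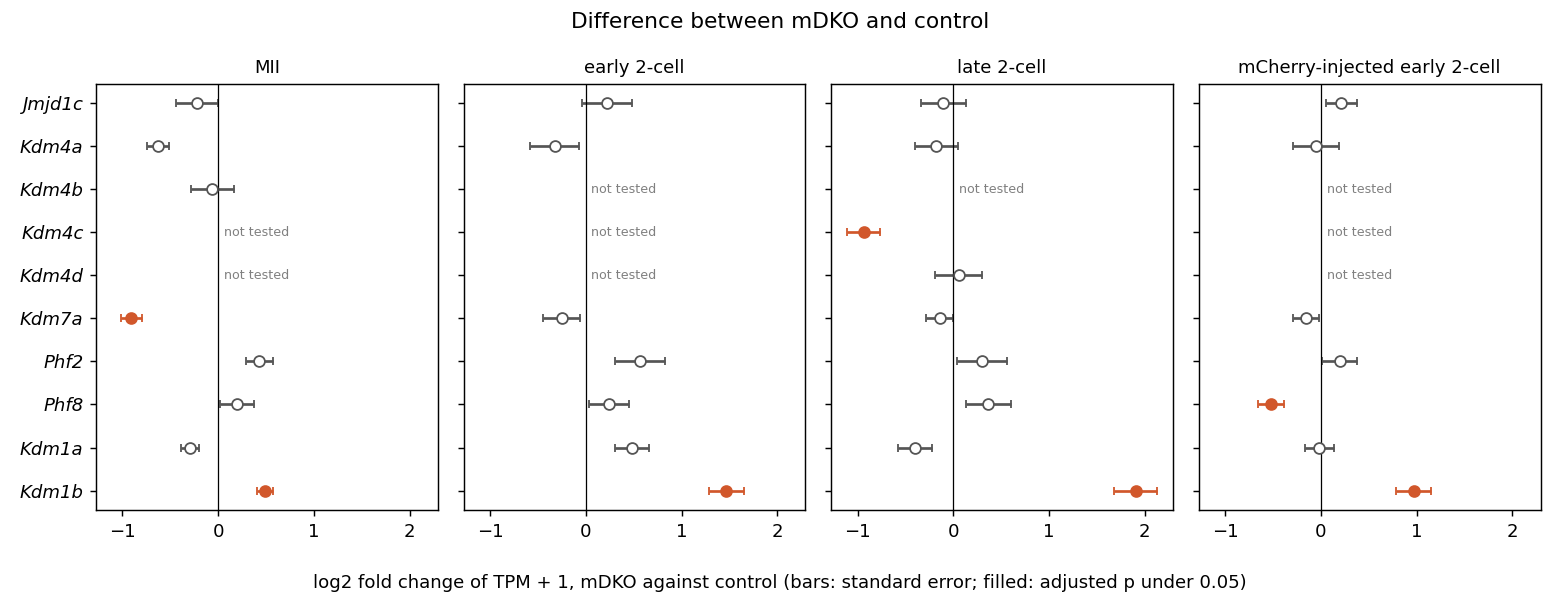
Log2 fold change of TPM + 1 between mDKO and control for the 10 genes at 3 stages without injection and in mCherry-injected early 2-cell embryos, with standard errors as bars; filled points passed an adjusted p of 0.05 in limma. Kdm1b is the filled point to the right in all 4 panels, at 0.49, 1.47, 1.9 and 0.97.

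The summed level of oocyte markers was also higher in mDKO at these stages, but single markers went both ways. The sum of the 10 oocyte markers, among them the egg linker histone gene H1foo and the zona gene Zp3, was 3447 and 3340.1 TPM in E2C controls and 5064 and 5191 TPM in mDKO. At L2C the controls had 703 and 806 TPM and mDKO 1638 and 1866 TPM, and at MII the values were 36122 and 33444 against 41912 and 41345 TPM. Of the 10, 0 were called at MII, 2 higher and 1 lower at E2C, and 7 higher and 1 lower at L2C. Of all genes, 0.845%, 5.38% and 19.1% were called higher at MII, E2C and L2C, and 3.41%, 8.99% and 23.3% lower. H1foo alone stood at 389 and 435 TPM in E2C controls, against 1474 and 1456 TPM in mDKO. At E2C Zp2 lay at 78.9 to 79.0 TPM in mDKO and 97.5 to 100.1 TPM in the controls, and at L2C Zp3 lay at 62.9 to 63.1 against 101 to 103 TPM. The 12 early 2-cell markers, such as the Zscan4 genes, summed to 1513 and 2123 TPM in E2C controls, against 316 and 363 TPM in mDKO, and 11 of the 12 were called lower. At L2C 10 of the 12 were called higher. The part of either list in the values of Kdm1b was not tested. Markers of cumulus and granulosa cells summed to 118 and 112 TPM in E2C controls, against 197 and 237 TPM in mDKO, mostly from Serpine2. At E2C 2 of 5 tested were called higher, and Amh was listed at 0 in all 4 E2C libraries. At MII these markers summed to 897 and 1009 TPM in controls, against 924 and 984 TPM in mDKO, with 0 of 9 tested called higher. Serpine2 alone stood at 820.2 and 882 TPM in MII controls, against 829.9 and 863 TPM in mDKO. Sperm and spermatid markers, mostly Odf2, summed to 118 and 120.3 TPM in E2C controls, against 77.1 and 70.9 TPM in mDKO, with Gapdhs, Prm1 and Tnp2 at 0. Blood cell markers summed to 12.9 and 20.8 TPM in E2C controls and to 1.94 and 1.3 TPM in mDKO. They summed to 309 and 359.8 TPM in L2C controls, against 67.4 and 291 TPM in mDKO, Lyz2 reaching 205 TPM in mDKO replicate 2 and Hbb-bs listed at 0. The part of these 3 lists was not tested either.

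Kdm1a (chr4:136550533-136602787, minus strand), the highest member in control oocytes, did not pass the test at any stage. Its MII levels were 199.6 and 196 TPM in controls, against 171 and 152 TPM in mDKO. Its E2C levels were 53.9 and 46.7 TPM, against 79.0 and 63.1 TPM, and its L2C levels 23.8 and 29.8 against 20.7 and 19.3 TPM. The mDKO libraries thus lay below both controls at MII and L2C and above both at E2C. The log2 fold changes were -0.29 ± 0.09 (adjusted p = 0.134), 0.48 ± 0.18 (adjusted p = 0.107) and -0.40 ± 0.17 (adjusted p = 0.106), all by limma. Without E2C mDKO replicate 2 the E2C value was 0.64 and passed (adjusted p = 0.00507, limma).

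The change of the Kdm1a effect from E2C to L2C was itself tested, and it was -0.88 ± 0.22 (adjusted p = 0.0156, limma over the 12 libraries without injection). Of 14316 genes, 25.7% were called in this contrast, 1889 higher and 1789 lower (1579 and 2251 with size factors), and Kdm1a was the 1 of 10 members called. The call was lost without L2C mDKO replicate 2 (adjusted p = 0.0543), L2C control replicate 2 (0.0534) or E2C control replicate 2 (0.0632). From MII to E2C the change of the mDKO effect was called for 3.88% of genes and for 0 of the 10 members, with an unadjusted p of 0.00540 for Kdm1a, 0.00414 for Kdm1b and 0.0111 for Kdm7a. Without E2C mDKO replicate 2 this change also passed for Kdm1a (0.94, adjusted p = 0.0396, limma) and Kdm7a (0.82, adjusted p = 0.0434, limma). Kdm3a and Kdm3b were called in that contrast, at 1.40 ± 0.27 and 2.76 ± 0.38. The control means of Kdm3a went from 8.46 TPM at MII to 2.33 TPM at E2C, and those of mDKO from 0.721 to 0.599 TPM.

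Kdm7a (chr6:39136620-39206773, minus strand), whose enzyme removes mono- and dimethylation from H3K9 and H3K27, was the member called lower in mDKO oocytes. Control MII oocytes had 94.3 and 109.5 TPM and mDKO oocytes 52.9 and 54.6 TPM, with no overlap and a control mean 1.9 times that of mDKO. It fell by 0.91 ± 0.11 on the log2 scale, adjusted p = 0.0197 (limma). The call was lost without mDKO replicate 1 (adjusted p = 0.110), mDKO replicate 2 (0.0751) or control replicate 2 (0.0819), and without the filter on low TPM (0.0567). At E2C the controls, at 43.5 and 38.1 TPM, overlapped with mDKO, at 38.2 and 30.2 TPM. At L2C both mDKO values, 32.3 and 32.6 TPM, lay below both controls, at 35.1 and 36.8 TPM. Neither stage was called (adjusted p = 0.426 and 0.448, limma). Kdm7a at L2C was at 88.2% of its E2C mean TPM in control and at 94.8% in mDKO embryos. At L2C it was the highest of the 10 by mean in both genotypes, at 36.0 TPM in control and 32.4 in mDKO, where it overlapped Kdm1b.

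Phf2, which encodes another enzyme of the KDM7 group, was abundant in the oocyte libraries and low in those of E2C. Control MII oocytes had 53.3 and 42.6 TPM and mDKO oocytes 67.2 and 62.0 TPM. At E2C the controls were at 1.27 and 1.22 TPM, against 2.63 and 2.04 TPM in mDKO, and at L2C at 0.884 and 0.688 against 1.19 and 1.20 TPM. Every mDKO value was above both control values at each stage, with log2 fold changes of 0.43 ± 0.14, 0.56 ± 0.26 and 0.30 ± 0.26, none of which passed (adjusted p = 0.145, 0.196 and 0.392, limma). Relative to the MII mean, the E2C mean TPM was 2.60% in control and 3.61% in mDKO, where stage and library kit cannot be told apart.

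Phf8, an X-linked gene (chrX:151520641-151633859, plus strand) whose enzyme acts on H3K9 and H4K20, had its highest level at E2C. It was at 13.3 and 10.8 TPM in control oocytes, against 13.5 and 14.3 TPM in mDKO, at 18.9 and 15.5 against 21.8 and 19.2 TPM at E2C, and at 5.52 and 7.59 against 9.35 and 7.98 TPM at L2C. Here too mDKO lay above control at each stage without overlap, by 0.20 ± 0.18, 0.24 ± 0.21 and 0.37 ± 0.23 on the log2 scale, and no stage passed (adjusted p = 0.547, 0.481 and 0.245, limma).

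By control means without injection, Kdm4a and Kdm4b were highest in MII oocytes, and Kdm4c and Kdm4d at L2C. Kdm4a, whose enzyme acts on H3K9 and H3K36 and is stored in the egg, stood at 62.5 and 72.1 TPM in control oocytes, against 41.7 and 44.4 TPM in mDKO. The difference of -0.63 ± 0.12 missed the threshold (adjusted p = 0.0537, limma), although the groups did not overlap. At E2C Kdm4a was at 12.2 and 8.43 TPM in the controls, against 7.44 and 8.38 TPM in mDKO, and at L2C at 5.64 and 7.07 against 5.58 and 5.39 TPM, with no call at either stage (adjusted p = 0.444 and 0.560, limma). All mDKO values were below all control values at the 3 stages.

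Kdm4c (chr4:74242497-74405864, plus strand) was the member called lower at L2C. It was near 0 before, between 0.0462 and 0.986 TPM in the 8 MII and E2C libraries, and mDKO and control overlapped at both of these stages. At L2C it stood at 20.7 and 19.0 TPM in the controls, against 9.63 and 10.2 TPM in mDKO, a control mean 2.01 times that of mDKO. It fell by 0.94 ± 0.18 on the log2 scale (adjusted p = 0.00552, limma) and was called in each of 9 alternatives. Its mDKO effect was not called as different from that at E2C (-0.98 ± 0.38, adjusted p = 0.0832, limma). At this stage 23.3% of all genes were called lower.

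Kdm4d, which encodes a shorter enzyme of the family without the reader domains of the others, was under 1 TPM at MII and E2C and reached 2.81 and 3.11 TPM in L2C controls, against 3.49 and 2.79 TPM in mDKO. These values overlap, and the difference was 0.06 ± 0.25 (adjusted p = 0.865, limma). At MII it stood at 0.478 and 0.444 TPM in the controls, against 0.0758 and 0.0750 TPM in mDKO, levels too low to be tested under the filter. Kdm4b was at 1.64 and 1.39 TPM in control oocytes, against 1.48 and 1.34 TPM in mDKO, lay between 0.133 and 0.561 TPM in the 4 E2C libraries, and was at 0.909 and 0.934 against 1.08 and 0.801 TPM at L2C.

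Jmjd1c (chr10:67096351-67256326, plus strand, 25 exons in its longest coding transcript), the KDM3 gene that was not targeted, had a low level at each stage. It stood at 2.75 and 2.98 TPM in control oocytes, against 2.5 and 2.13 TPM in mDKO, at 2.68 and 2.34 against 3.42 and 2.80 TPM at E2C, and at 5.29 and 5.38 against 5.67 and 4.21 TPM at L2C. The mDKO values lay below control at MII, above it at E2C and on both sides of it at L2C. Its log2 fold changes were -0.22 ± 0.22, 0.23 ± 0.26 and -0.10 ± 0.24, and none passed (adjusted p = 0.585, 0.613 and 0.747, limma). A difference of this KDM3 gene between the genotypes was not detected, which does not show that its level was equal. In control oocytes the mean of Jmjd1c was 2.86 TPM, beside 8.46 TPM for Kdm3a and 25.8 TPM for Kdm3b. The genes whose log2(TPM + 1) values ran most like those of Jmjd1c over the 12 libraries without injection were Arid4a (Pearson r = 0.968), Pdcd2 (0.953) and Cd320 (0.953) of 7953 genes compared. These 12 libraries share groups and stages, so r is a description. Arid4a had means of 15.4 and 14.4 TPM in control and mDKO oocytes and of 29.2 and 29.5 TPM at L2C. The L2C means of Pdcd2 were 85.3 TPM (control) and 40.2 TPM (mDKO), and those of Cd320 132 and 83.0 TPM.

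Between stages in controls, 6 of the 10 genes fell from MII to E2C, with log2 fold changes of -4.44 ± 0.19 for Phf2, -2.61 ± 0.19 for Kdm4a, -2.21 ± 0.19 for Kdm1b, -1.96 ± 0.16 for Kdm1a, -1.3 ± 0.15 for Kdm7a and -0.96 ± 0.20 for Kdm4b. Phf8 was called higher at 0.48 ± 0.20 (adjusted p = 0.0473, limma), but in only 3 of 9 alternatives: the call was lost without E2C control replicate 1 (0.243) or MII control replicate 2 (0.245), and by 4 other settings (0.0558 to 0.0578). In this contrast 35.1% of 14316 genes were called higher and 37.0% lower, 5023 and 5300 genes (5698 and 4665 with size factors, which moved the median of all genes from 0.03 to 0.20). The members' median was -1.13, and stage and library kit cannot be told apart in this contrast. From E2C to L2C Kdm4c rose by 4.02 ± 0.27, Kdm4d by 1.37 ± 0.20, Jmjd1c by 0.85 ± 0.20 and Kdm4b by 0.57 ± 0.20. Kdm1b, Phf8, Kdm1a and Kdm4a fell, with changes of -1.59 ± 0.19, -1.27 ± 0.20, -0.89 ± 0.16 and -0.61 ± 0.19. The background was 35.5% higher and 30.1% lower. The Kdm4b call was lost without any single one of the 4 libraries compared (adjusted p = 0.0679 to 0.0884, limma), and that of Kdm4a without L2C control replicate 1 (0.112) or E2C control replicate 1 (0.169) and with only the 2 groups compared (0.0579).

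**Figure D3:**
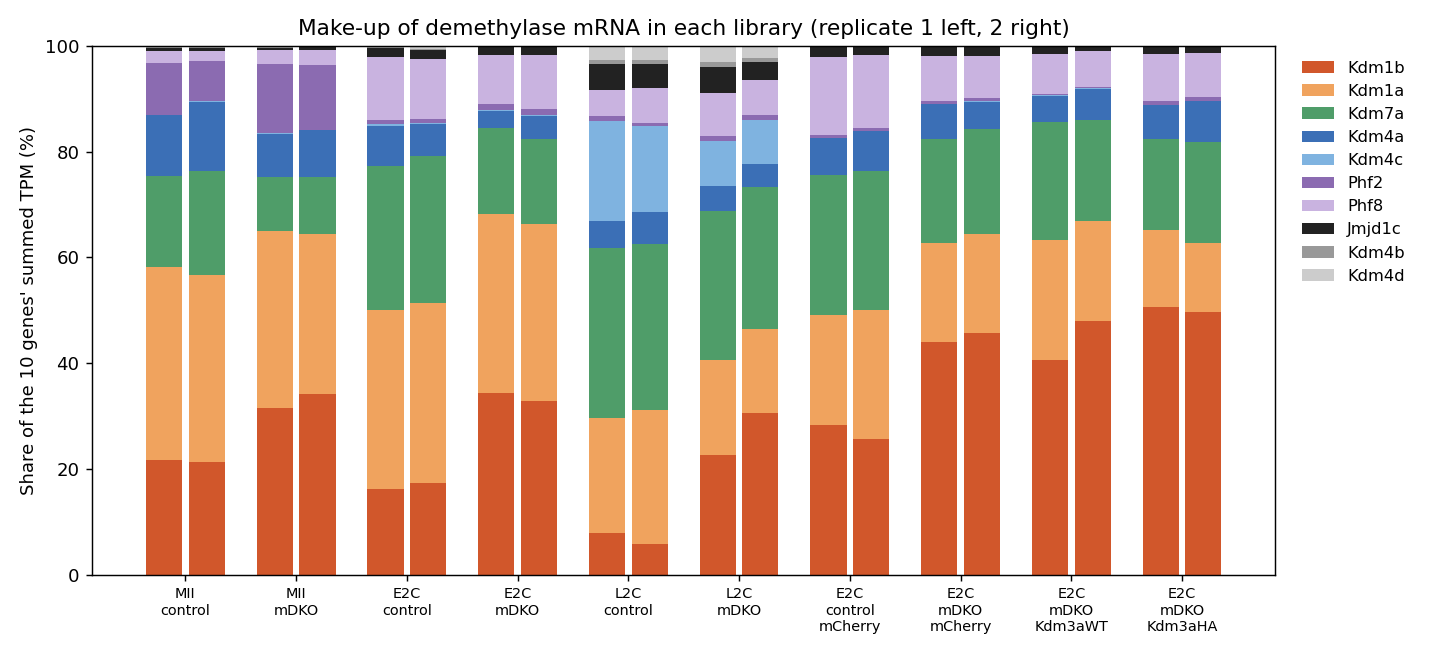
Make-up of the summed TPM of the 10 demethylase genes in each library of the uninjected and injected oocyte and 2-cell groups, in percent (bars from 0 to 100, replicate 1 left and 2 right). Kdm1b takes 16.3% and 17.4% in control E2C embryos and 34.4% and 32.9% in mDKO E2C embryos.

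Injection was used to put Kdm3a back into mDKO embryos at E2C. The mDKO mCherry group repeated the genotype comparison in other embryos, and Kdm1b was again higher, at 74.5 and 76.8 TPM against 37.7 and 38.7 TPM in control mCherry. It rose by 0.97 ± 0.19 on the log2 scale (adjusted p = 0.00323, limma over the 8 injected E2C libraries), without overlap and in each of 9 alternatives. In this comparison 26.9% of 10960 genes were called higher and 20.0% lower, and 1 of 7 members tested was called in each direction. Dek, which overlaps the 3′ end of Kdm1b, also rose, by 1.33 ± 0.18 (adjusted p = 5.71e-04, limma), from 118 and 129 TPM to 314 and 309.9 TPM, and how far shared reads enter the value of Kdm1b was not tested. Tpmt was not called (-0.22 ± 0.12, adjusted p = 0.171, limma). The 10 oocyte markers summed to 4306 and 4611 TPM in control mCherry embryos, against 5683 and 5578 TPM in mDKO mCherry. Serpine2, the highest of the 12 cumulus and granulosa markers, was at 62.2 and 51.2 against 312 and 307 TPM, with Amh and Ptx3 listed at 0. Of the 7 tested, 3 were called higher. Inhba was listed at 0 in control and at 6.32 to 7.56 TPM in mDKO mCherry embryos, and Tnfaip6 was at 2.69 to 3.84 against 8.18 to 9.23 TPM. Blood cell markers summed to 8.71 and 5.36 TPM in control mCherry and 32.7 and 18.8 TPM in mDKO mCherry embryos. The part of these 3 lists was not tested.

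Phf8 was the member called lower in the injected comparison, at 14.3 and 13.1 TPM in mDKO and 19.4 and 20.7 TPM in control mCherry embryos, a fall of 0.52 ± 0.13 (adjusted p = 0.0128, limma). Without injection its mDKO values at E2C had been above those of control, and the 2 comparisons were not tested against each other because their tables were made separately. The Phf8 call was lost without mDKO mCherry replicate 1 (adjusted p = 0.0521), mDKO mCherry replicate 2 (0.101) or control mCherry replicate 2 (0.0686). Kdm1a was at 31.6 and 31.2 TPM in mDKO and 27.5 and 36.7 TPM in control mCherry embryos, which overlap. Jmjd1c was at 3.01 and 2.88 against 2.54 and 2.26 TPM, without overlap and without a call (0.22 ± 0.16, adjusted p = 0.303, limma).

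With the injected construct included, Kdm3a was listed at 4122 and 2315 TPM with Kdm3aWT and at 4043 and 3907 TPM with Kdm3aHA, against 0.262 and 0.411 TPM in mDKO mCherry embryos. None of the 7 members tested was called in mDKO embryos given Kdm3aWT or Kdm3aHA when set against mCherry, where 11.8% and 10.8% of all genes were called. The overall calls leaned downwards, with 104 higher and 1184 lower for Kdm3aWT (331 and 557 with size factors, which moved the median of all genes from -0.19 to 0.00) and 169 higher and 1018 lower for Kdm3aHA (348 and 746). Kdm1b stood at 54.3 and 87.0 TPM with Kdm3aWT and at 82.2 and 85.9 TPM with Kdm3aHA. The Kdm3aWT values lay on both sides of the mCherry values, and all 4 were above those of control mCherry. The log2 differences from mDKO mCherry were -0.14 ± 0.19 (adjusted p = 0.677) and 0.15 ± 0.19 (adjusted p = 0.669, both limma). Kdm3aWT replicate 2 decided the former value: without it the difference of Kdm1b was -0.47 from mCherry (adjusted p = 0.0241) and -0.62 from Kdm3aHA (adjusted p = 0.0108, limma), both called lower.

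Jmjd1c was at 1.72 and 1.54 TPM with Kdm3aWT and at 1.96 and 1.97 TPM with Kdm3aHA, below the 3.01 and 2.88 TPM of mDKO mCherry in all 4 libraries. The differences were -0.59 ± 0.16 (adjusted p = 0.0512) and -0.41 ± 0.16 (adjusted p = 0.147, both limma), and the former missed the threshold narrowly. Kdm1a was at 30.4 and 34.3 TPM with Kdm3aWT and at 23.7 and 22.7 TPM with Kdm3aHA, the latter a difference of -0.42 ± 0.15 from mCherry (adjusted p = 0.110, limma). Kdm7a stayed between 28.1 and 34.8 TPM in these 4 libraries. Phf8 was at 10.2 and 12.1 TPM with Kdm3aWT and at 14.6 in both libraries with Kdm3aHA, so that neither construct brought it to the 19.4 and 20.7 TPM of control mCherry. Between Kdm3aWT and Kdm3aHA 3.29% of genes were called, 145 higher and 216 lower (128 and 95 with size factors), and 0 of the 7 members.

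**Figure D4:**
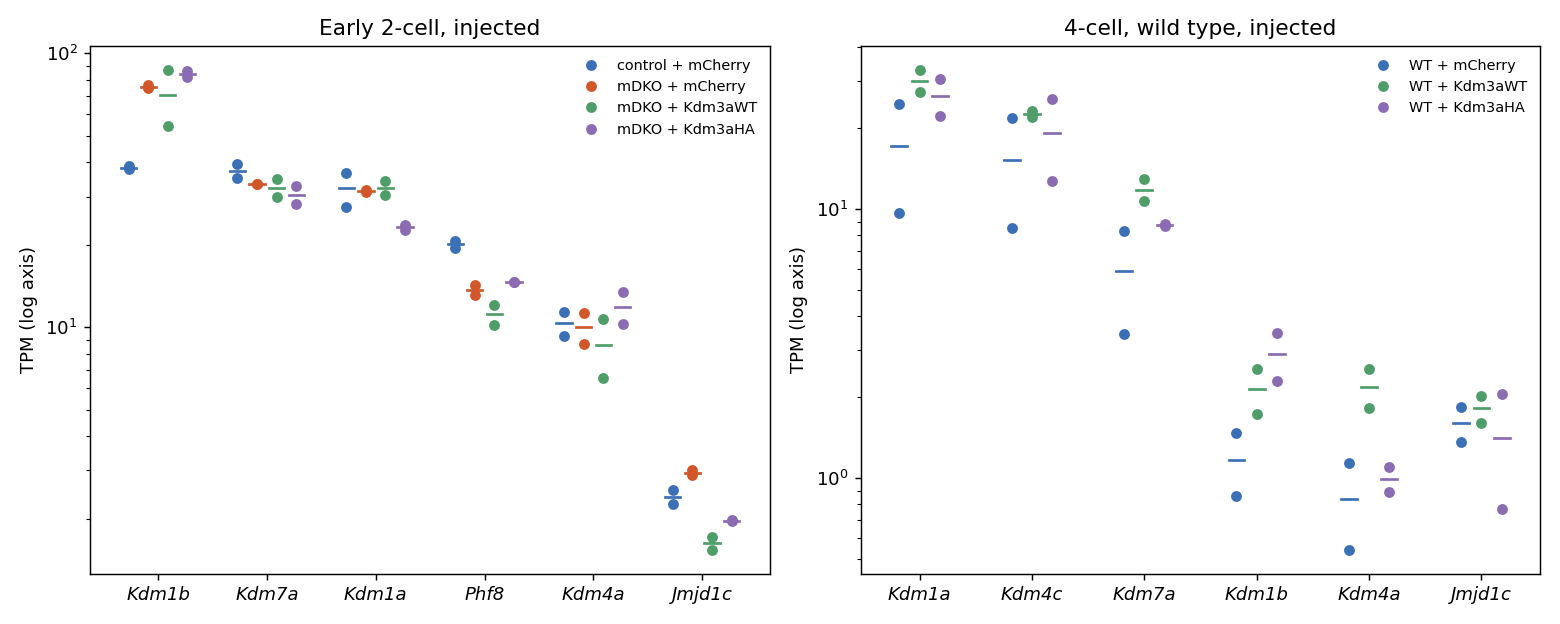
TPM (log axis) of members in each injected library, early 2-cell embryos on the left and wild-type 4-cell embryos on the right; points are libraries and short lines the means of 2. On the left, Kdm1b is at 37.7 and 38.7 TPM in control mCherry and between 54.3 and 87.0 TPM in the 6 mDKO libraries.

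In wild-type 4C embryos the order of the members differed from that in the oocyte. Kdm1a stood highest with 24.6 and 9.70 TPM in mCherry, 27.2 and 33.0 TPM in Kdm3aWT and 22.3 and 30.5 TPM in Kdm3aHA embryos. Kdm4c followed with 21.9 and 8.52, 23.3 and 22.0, and 12.7 and 25.8 TPM. Kdm7a was at 8.34 and 3.43, 13 and 10.7, and 8.67 and 8.85 TPM, and Kdm1b at 1.48 and 0.863, 2.55 and 1.73, and 2.31 and 3.47 TPM. In mCherry replicate 2 each of these 4 genes had its lowest value of the 6 libraries.

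Jmjd1c lay between 0.767 and 2.06 TPM in the 6 libraries, Phf2 between 0 and 0.0308 TPM, and Kdm4d was listed at 0 in all 6. Kdm3a, with the injected construct included, was at 108 and 53.4 TPM in the Kdm3aWT libraries, 70.5 and 161 TPM in those of Kdm3aHA and 21.8 and 6.24 TPM in those of mCherry. By limma no gene was called in the 3 comparisons (0% of 9669 genes each), while 776, 264 and 227 genes had an unadjusted p under 0.05. The median of all genes was 0.44 for Kdm3aWT and 0.35 for Kdm3aHA against mCherry on the log2 scale, and 0.01 for both with size factors. Members had log2 differences from mCherry of -0.15 to 0.99 for Kdm3aWT and -0.15 to 0.84 for Kdm3aHA, none called. The spread between the mCherry libraries limits what could be detected there.

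Other genes of the same pathways were listed as context. Of 15 other histone lysine demethylase and JmjC genes, 0 of 9 tested were called at MII, beside 0.845% of all genes higher and 3.41% lower. At E2C 0 of 8 were called, beside 5.38% and 8.99% of all genes. At L2C 2 of 11 rose and 3 fell, beside 19.1% and 23.3% of all genes. Kdm6b, an H3K27 demethylase gene, rose by 1.41 ± 0.23 from 3.58 ± 0.521 to 11.2 ± 1.48 TPM (SD), and its X-linked partner Kdm6a rose by 0.93 ± 0.15. Kdm5b and Kdm5a, which encode H3K4 demethylases, fell, with changes of -1.04 ± 0.13 and -1.05 ± 0.19, Kdm5b from 91.9 ± 6.45 to 44.1 ± 0.814 TPM (SD). In the mCherry comparison 2 of 8 rose and 1 fell, beside 26.9% and 20.0% of all genes, among them the JmjC gene Jmjd6 with a rise of 1.51 ± 0.12 from 28.9 ± 4.02 to 84.0 ± 0.997 TPM (SD).

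H3K9 methyltransferase genes, whose products lay down the marks that several members remove, gave 0 calls among 6 tested at MII. Of all genes, 0.845% were called higher and 3.41% lower there. At E2C 0 of 8 were called, beside 5.38% and 8.99% of all genes. At L2C 5 of 8 fell and 1 rose, beside 23.3% and 19.1% of all genes, with a median of -0.66 against 0.00 for all genes. Setdb2 fell by 1.14 ± 0.13, from 87.5 ± 6.96 to 39.0 ± 1.75 TPM (SD), and was called in each of 9 alternatives. Prdm2 and Ehmt1 had changes of -0.71 ± 0.19 and -0.71 ± 0.20, each called in only 6 of 9. The G9a gene Ehmt2 fell by 0.80 ± 0.27 (adjusted p = 0.0494, limma), in 4 of 9. Without L2C mDKO replicate 1, mDKO replicate 2 or control replicate 2, the values of Ehmt2 were -0.69, -0.91 and -0.59 and were not called.

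Partners of LSD1 and LSD2 gave 0 calls among 12 tested at MII and 11 at E2C. The shares of all genes were 0.845% higher and 3.41% lower at MII, and 5.38% and 8.99% at E2C. At L2C 2 of 13 partners were higher and 2 lower, shares no larger than the 19.1% and 23.3% of all genes. There Rcor1, the CoREST scaffold of KDM1A, fell by 0.98 ± 0.14 from 72.6 ± 2.07 to 36.5 ± 4.46 TPM (SD), and the deacetylase gene Hdac1 fell by 0.79 ± 0.14. In the mCherry comparison 3 of 10 rose, Hdac2 by 1.68 ± 0.24, Hmg20b by 1.32 ± 0.24 and Rcor3 by 1.16 ± 0.26, and Hdac1 fell by 0.89 ± 0.17, beside 26.9% of all genes called higher and 20.0% lower.

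Of the genes listed for 2-oxoglutarate and FAD metabolism, the aspartate aminotransferase gene Got1 was called lower in mDKO at MII and E2C. Its changes were -2.73 ± 0.18 and -2.38 ± 0.20, and -3.06 ± 0.27 in mCherry-injected E2C embryos, where it was also called lower. Its mean fell from 24.8 ± 1.43 to 2.90 ± 0.303 TPM in oocytes and from 57.5 ± 7.80 to 10.3 ± 1.39 TPM at E2C (SD), and each of these calls held in all 9 alternatives. It was the 1 of 11 genes of its list called at MII, and 1 rose and 2 fell of 11 at E2C, 3 rose and 5 fell of 12 at L2C, and 6 rose and 2 fell of 12 in the mCherry comparison. The shares of all genes called higher and lower were 0.845% and 3.41% at MII and 5.38% and 8.99% at E2C. They were 19.1% and 23.3% at L2C and 26.9% and 20.0% in the mCherry comparison. Idh1, the cytosolic isocitrate dehydrogenase gene, rose by 1.73 ± 0.24 at L2C, from 2.51 ± 0.323 to 10.7 ± 2.14 TPM (SD).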

How the data were processed

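RNA of 26 pooled oocyte or embryo libraries, 13 groups of 2, was analysed from 3 tables of TPM that the authors deposited, 1 column per library. Per the submitters' processing notes, the tools included RSEM 1.3.1, SAMtools 1.9, Bowtie2 2.3.4.1 and STAR 2.7.10b, and the build was mm10; the sources used here give no annotation, filter or strand setting. All 26 columns matched 1 sample each, and 0 were left out.

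From these values, log2(TPM + 1) was tested with limma 3.58.1 in R 4.3.3 (mean-dependent trend, two-sided, Benjamini-Hochberg over all genes tested, called at an adjusted p under 0.05). Genes needed 1 TPM in at least 2 libraries of a fit. Each uninjected genotype comparison used the 4 libraries of its stage, stage comparisons and differences between stages the 12 uninjected libraries, and injected comparisons the 8 E2C or 6 4C libraries. The fitting was tested on simulated data. Named are the 10 members, Kdm3a, Kdm3b, the 3 genes most like Jmjd1c (mean TPM of at least 5, predicted genes left out) and called genes of 4 context lists, at most 4 per list and comparison; Tpmt and Dek were added after their values were seen. The members and lists were chosen with earlier results of these data known. Alternatives were a pseudocount of 0.1, no filter, size-factor scaling, a replicate block, other sets of libraries in the fit and leaving out each library. Promoter sequences are those of RefSeq, GRCm38.p6, and gene extents those of RefSeq; exons are those of GENCODE M21.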

Additional observations from a re-analysis of the deposited data

Results flagged for a closer look

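The effect of the maternal double knockout on Kdm3a and Kdm3b differed between MII and E2C by a test of the difference itself. The log2 fold change at E2C minus that at MII was 1.40 for Kdm3a and 2.76 for Kdm3b, the control levels being lower at E2C (limma, adjusted p = 0.0174 and 0.00346). For Kdm3a the adjusted p was 0.0524 to 0.0789 without MII mDKO replicate 1, MII mDKO replicate 2, MII control replicate 2 or E2C control replicate 2. For Kdm3b, which was under 1 TPM in 3 of the 4 E2C libraries, the difference was 2.42 with a pseudocount of 0.1 and did not pass (adjusted p = 0.126). The effect on Kdm1a differed between E2C and L2C, by -0.88, and was called in 9 of 12 alternatives. Its mDKO libraries lay above both controls at E2C and below both at L2C, but neither stage was called by itself. In mCherry-injected E2C embryos Kdm1a overlapped between mDKO and control.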

How the results depend on the processing

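Over 7 to 12 alternatives per result (fewer than 9 where the gene fell under the filter), the direction was kept for every called value of the 10 members and of Kdm3a and Kdm3b. Of 1279 alternative values for these 12 genes, 1219 stayed on the same side of the threshold, 41 no longer passed and 19 newly passed; of 390 for the context genes named, 83 no longer passed. Another 55 values that were not called changed sign. TPM hides depth, and 2 libraries per group limit each test.

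Called genes without the filter on low TPM numbered 145 at MII, 409 at E2C and 26 for Kdm3aWT against Kdm3aHA at E2C (458, 1600 and 361 with it). The pseudocount of 0.1 gave 351 for the difference between E2C and MII (555 before) and 2 for Kdm3aWT at 4C (0 before). Size factors gave 223 for Kdm3aWT against Kdm3aHA. All 12 uninjected libraries in 1 fit gave 734 at MII. Fits of only the groups compared gave 10 for Kdm3aWT against Kdm3aHA at E2C, and 1 for Kdm3aWT and 8 for Kdm3aHA against mCherry at 4C; Kdm1a then passed for Kdm3aHA against mCherry at E2C (-0.42, adjusted p = 0.0341, limma). Leaving out 1 library gave 42 to 300 at MII, 282 to 3214 at E2C, 216 to 839 for E2C minus MII, 3117 to 4026 for mCherry, 91 to 1551 for Kdm3aWT and 216 to 882 for Kdm3aHA against mCherry, and 8 to 1493 between the latter, all at E2C; at 4C it gave 0 to 491 for Kdm3aWT and 0 to 21 for Kdm3aHA against mCherry, and 0 to 23 between them. The cause was not tested.

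Replicate numbers give only 2 pairs, and the deviations of same-numbered libraries correlated at 0.347 at MII, -0.0087 at E2C and 0.0328 at L2C, and the labels tie no number to a shared litter or day, so the numbers were not taken as pairs. The replicate block gave 2143 called genes at MII and 2560 at E2C, and at 4C 26 for Kdm3aWT and 2 for Kdm3aHA against mCherry and 14 between them. In that fit Kdm4a (adjusted p = 0.00505), Phf2 (0.0247) and Kdm1a (0.0398, all limma) also passed at MII, and Kdm1a at E2C (0.0369).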
